A study of Mus musculus with 6 samples.

Results

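The genes described here encode the enzymes that attach or remove ubiquitin and the subunits of the proteasome. They were chosen by symbol, and no measured value entered the rule. Earlier results of these data were, however, known when the choice was made. The symbols were Psma to Psmg (proteasome), Ube1 to Ube4 (ubiquitin-conjugating enzymes and some ligases) and Usp (deubiquitinases). Cul (cullins), and Fbxl, Fbxo and Fbxw (F-box proteins) were also taken. TERT regions named 170 such genes out of 15356 genes named in all, through 390 of 41527 regions. Of the 170, 168 are protein-coding, Fbxl12os is a pseudogene and Ube4bos3 is a non-coding RNA. RefSeq lists 234 protein-coding genes of these families on the main chromosomes, so 66 had no region under their own name. Symbols alone also take in Psmc3ip and Usp6nl, which are named after another gene and are neither proteasome subunits nor deubiquitinases.

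Chromatin sites of TERT, the catalytic protein of telomerase, had been mapped by CUT&Tag. There an antibody tethers a transposase, which inserts sequencing adapters close to the protein. Neurons had been cultured from the cortex and hippocampus of C57BL/6 embryos at E15-18; the labels name no mutant allele. All 6 samples were probed with an anti-TERT antibody: 3 had received dimethyl sulfoxide vehicle (called untreated in one label field) and 3 had received BIBR1532, a synthetic inhibitor of telomerase, at 2 µM for 24 h. The deposited lists combine the 3 libraries of a condition, so each condition is 1 pooled measurement, without per-sample values, replicate error or known depth, and no test across samples could be made.

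The regions come as 3 lists. The common list held 6812 regions, among them 103 at the ubiquitin and proteasome genes. The BIBR1532 list, with higher signal in the BIBR1532 pool, held 16153, among them 146. The vehicle list, with higher signal in the vehicle pool, held 18562, among them 141. Which list belongs to which pool follows from the order of the conditions in the list names, so the direction is likely and is not stated outright. Each region carries a score from the authors, without unit, for the difference between the pools. Scores run low in the common list, where a low score means that the pools were alike, and higher in the other lists. Of the BIBR1532 regions at these genes 59 (40.4%) carried the same score, 6.34, and of the vehicle regions 76 (53.9%) carried 5.19, so these regions cannot be ranked among themselves. Intervals below are exact (Clopper-Pearson) 95% binomial intervals, cover counting error only, and treat regions or genes as independent, which neighbours on a chromosome are not.

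As background, ubiquitin is activated by an E1 enzyme, passed to an E2 conjugating enzyme and joined to a substrate by an E3 ligase. Cullins form scaffolds of large E3 ligases, and in those built on Cul1 an F-box protein binds the substrate. Chains of ubiquitin send many substrates to the proteasome, where a regulatory cap (19S) recognises and unfolds them and a barrel-shaped core (20S) cleaves them. Deubiquitinases edit or remove the chains. In neurons this system turns over synaptic and misfolded proteins.

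Many of the common regions at these genes covered bases just before a start site. For 8 genes, the upstream bases of the RefSeq promoter (GRCm38, the build also called mm10) that lay inside a common region are given 5′ to 3′, and end at or before the last base ahead of the start site. Capitals mark matches on either strand to GGGCGG (bound by Sp and KLF factors), CCGGAAG (ETS factors), CACGTG (an E-box), TGACNNNGC (antioxidant response) and TTAGGG (the telomeric repeat unit). Psma4 and Cul3 are shown for repeated Sp/KLF letters, Psmd12 and Psmd4 for the ETS letters that many cap genes held, Psmd1 and Ube3a because the stretches shown held none of the searched motifs, Ube2v1 for holding Sp/KLF, ETS and antioxidant letters together, and Usp31 for the telomeric unit.
Psma4, chr9:54950657-54950796, plus strand: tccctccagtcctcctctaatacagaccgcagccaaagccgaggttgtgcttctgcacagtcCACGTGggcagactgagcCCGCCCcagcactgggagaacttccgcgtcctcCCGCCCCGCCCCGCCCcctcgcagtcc
Psmd12, chr11:107479382-107479527, plus strand: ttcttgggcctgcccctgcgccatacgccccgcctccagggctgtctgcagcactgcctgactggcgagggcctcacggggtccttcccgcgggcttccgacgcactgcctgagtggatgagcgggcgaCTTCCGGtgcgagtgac
Psmd4, chr3:95042625-95042864, minus strand: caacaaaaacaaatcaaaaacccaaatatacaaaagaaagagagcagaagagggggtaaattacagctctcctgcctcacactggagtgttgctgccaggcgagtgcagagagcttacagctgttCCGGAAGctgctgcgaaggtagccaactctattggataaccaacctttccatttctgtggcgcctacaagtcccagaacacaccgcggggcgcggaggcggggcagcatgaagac
Psmd1, chr1:86064373-86064618, plus strand: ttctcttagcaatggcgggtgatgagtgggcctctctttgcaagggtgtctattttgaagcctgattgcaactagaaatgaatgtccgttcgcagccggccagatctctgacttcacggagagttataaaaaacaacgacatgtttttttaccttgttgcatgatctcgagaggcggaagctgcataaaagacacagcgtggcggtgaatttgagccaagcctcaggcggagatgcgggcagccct
Ube2v1, chr2:167632042-167632255, minus strand: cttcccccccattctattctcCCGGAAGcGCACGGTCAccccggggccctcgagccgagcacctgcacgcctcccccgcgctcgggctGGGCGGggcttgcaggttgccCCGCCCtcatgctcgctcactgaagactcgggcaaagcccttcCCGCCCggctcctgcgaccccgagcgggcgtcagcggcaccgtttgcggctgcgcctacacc
Ube3a, chr7:59228500-59228574, plus strand: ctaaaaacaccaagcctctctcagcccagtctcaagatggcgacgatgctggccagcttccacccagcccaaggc
Cul3, chr1:80340803-80340940, minus strand: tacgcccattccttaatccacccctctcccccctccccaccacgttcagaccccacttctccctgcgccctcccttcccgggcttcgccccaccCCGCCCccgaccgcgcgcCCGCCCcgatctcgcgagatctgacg
Usp31, chr7:121707443-121707692, minus strand: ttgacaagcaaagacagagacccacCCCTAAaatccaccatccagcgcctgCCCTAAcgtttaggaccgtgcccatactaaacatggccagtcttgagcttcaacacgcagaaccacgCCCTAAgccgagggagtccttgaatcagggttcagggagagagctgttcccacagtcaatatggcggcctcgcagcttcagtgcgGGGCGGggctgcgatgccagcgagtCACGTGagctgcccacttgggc
The Usp31 stretch held 3 telomeric units, each alone and read on the opposite strand as CCCTAA, so they did not form a tandem telomeric array. A match is a run of letters and not a measured binding site.

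Common promoter regions named more of the ubiquitin and proteasome genes than promoter regions of either condition-specific list did. A common region of the promoter class (by the annotation program's usual setting, from 1 kb before to 100 bp after a start site) named 62 of the 234 protein-coding genes (26.5%, 21.0 to 32.6). Over all protein-coding genes the share was 14.2% (3108 of 21883). A BIBR1532 promoter region named 21 of the 234 genes (8.97%, 5.64 to 13.4), against 6.89% of all genes. A vehicle promoter region also named 21 (8.97%), against 7.37% of all genes. For both condition-specific lists the share over all genes lay inside the interval of the group, and for the common list it lay below it.

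Most of the genes with a common promoter region had no condition-specific region of the promoter class. Of the 62 genes, 44 had promoter regions in the common list alone, 9 also in the BIBR1532 list and 9 also in the vehicle list, and none had promoter regions in all 3 lists (24 over all genes). The common list alone thus held 71.0% of them (58.1 to 81.8), against 73.5% over all genes (2284 of 3108), a share inside the interval. A further 12 genes (5.13%) had a promoter region in the BIBR1532 list alone and 12 in the vehicle list alone, against 4.89% and 5.08% of all genes, so these counts were near the background. They rest on assignment to the nearest start. For some of the vehicle-only genes, among them Psma7, Psmd10 and Usp37, a common region classed by their own transcript was assigned to a neighbour. Of the 86 genes with a promoter region in any list, 44 had the common list alone and 42 a condition-specific region. Over all genes these were 2284 and 3051 of 5335. Of the 42 genes with a condition-specific promoter region, 18 thus had a common one too. Over all genes this was so for 824 of 3051 (27.0%).

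By family, the share of genes with a common promoter region was highest among the few Ube3 and Ube4 ligases (3 of 5) and lowest among Fbxw genes (1 of 24, 4.17%, 0.105 to 21.1). The 19S cap genes Psmc and Psmd, with Psmc3ip counted among them, had 8 of 21 (38.1%, 18.1 to 61.6). Cullins had 3 of 8 (37.5%, 8.52 to 75.5) and Usp genes, with Usp6nl counted, 18 of 56 (32.1%, 20.3 to 46.0). The activator and assembly genes Psme, Psmf and Psmg had 3 of 10, Fbxl genes 5 of 18 (27.8%), Fbxo genes 9 of 36 (25.0%), Ube2 genes 8 of 37 (21.6%) and the 20S core 4 of 19 (21.1%). The intervals of neighbouring families overlapped widely, so the order among them was not resolved at these counts. The 14.2% of all protein-coding genes lay below the intervals of the 19S cap and Usp genes. It lay just below that of the Ube3 and Ube4 ligases (14.7 to 94.7) and inside those of all other families. Of the 24 Fbxw genes, 15 stand on chromosome 9, mostly as copies of one another, and only 4 of these were named by any region. Counts at such copies are uncertain; how reads were shared among them was not tested. Of 19 Fbxw genes with a promoter window, 5 had a CpG-rich one by the measure given below, and the part of this in the low share was not tested.

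**Figure D1:**
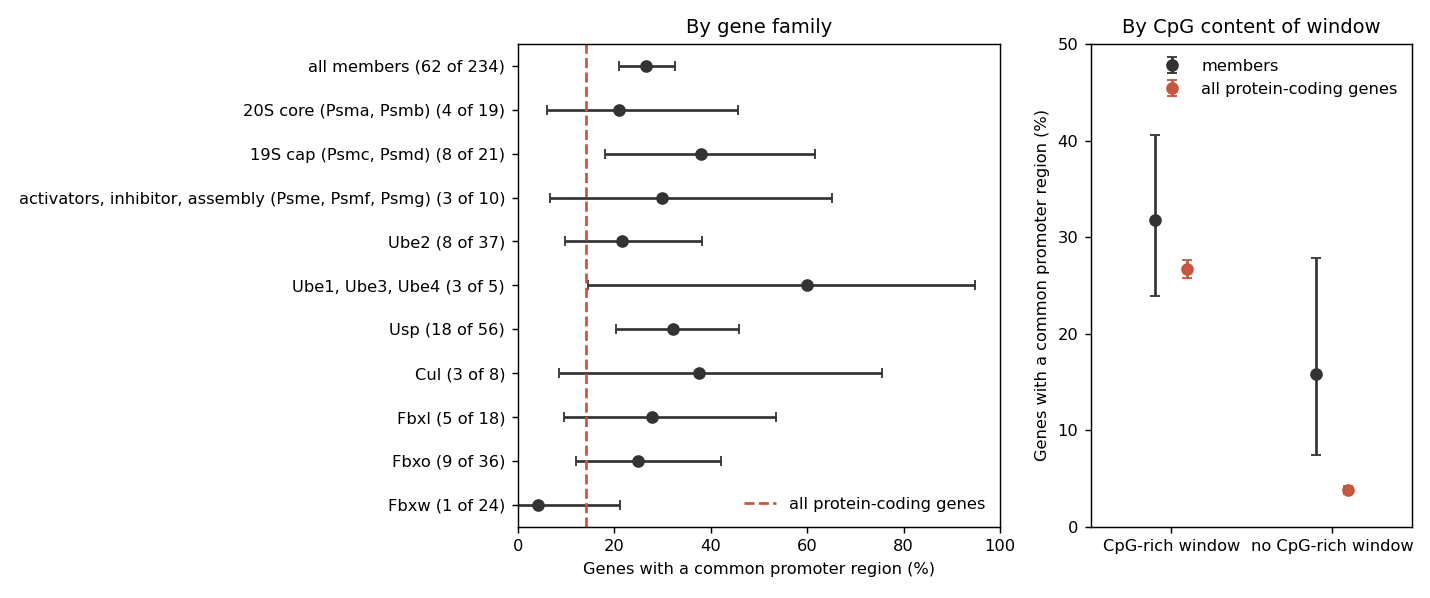
Left, percent of genes in each family with a common promoter region (points, with the number of genes) and exact 95% intervals (bars); the dashed line is the 14.2% of all protein-coding genes. Right, the same percent by CpG content of the promoter window, for ubiquitin and proteasome genes (dark) and all protein-coding genes (red); points for CpG-rich windows lie at 31.8% and 26.7%.

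In the 20S core, common promoter regions named Psma4, a subunit of the outer ring, and the inner-ring genes Psmb1, Psmb3 and Psmb8. Their centres lay upstream of the start, at -133 bp for Psma4, -192 bp for Psmb1, -379 bp for Psmb8 and -507 bp for Psmb3. Psmb8 encodes a catalytic subunit of the immunoproteasome, the form induced by interferon. The Psmb1 promoter was split between lists: a vehicle region (chr17:15498037-15498345, score 2.18) ended at the base before the common one (chr17:15498346-15498590, score 0.109). The vehicle region covered the start site, and the common one lay wholly upstream of it. Psmb5, the chymotrypsin-like catalytic subunit, had a common region in exon 1 of 3, centred 128 bp after its start (chr14:54617805-54617930, score 0.125), and no other region was assigned to it.

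BIBR1532 promoter regions in the core named the catalytic genes Psmb7 and Psmb9. The Psmb7 region (chr2:38643981-38644227) lay 198 bp before the start with a score of 7.14. Psmb7, the trypsin-like subunit, had no common region, but 4 other BIBR1532 and 3 vehicle regions were assigned to it, from 16.6 kb before to 59.7 kb after the start. The Psmb9 region (chr17:34186959-34187303, score 7.79) lies between Psmb9, another immunoproteasome subunit, and Tap1, the peptide transporter gene read from the opposite strand. Its class was set by the Tap1 transcript, and a vehicle region at chr17:34187402-34188070 (score 4.23) was assigned to Tap1, so the 2 conditions each had a region at this shared promoter. The vehicle region of Psma7 (score 1.31) lay 384 bp after its start and was classed by Ss18l1, its divergent neighbour. A common region classed by a Psma7 transcript was assigned to Ss18l1.

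In the 19S cap, 3 of the common promoter regions lay at genes of the ATPase ring that unfolds substrates and 5 at other subunits. The ATPase genes were Psmc4 (42 bp after the start, score 0.0822), Psmc5 (72 bp after, 0.373) and Psmc6 (262 bp before, 0.238). Each had a condition-specific promoter region as well: vehicle regions 776 bp before the Psmc4 start (score 2.52) and 313 bp after the Psmc5 start (1.52), and a BIBR1532 region 551 bp before the Psmc6 start (2.85). All 3 of those scores were below the tied value of their list. The common and vehicle regions of Psmc5 were both classed by the transcript of Ftsj3, its divergent neighbour.

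The other cap genes with a common promoter region were Psmd1, Psmd3, Psmd4, Psmd12 and Psmd13. Psmd1, the large scaffold of the base, had a single region, centred 122 bp before the start (chr1:86064373-86064621, score 0.344). Psmd4, a ubiquitin receptor, likewise had only its common region, 187 bp before the start (score 0.234). Psmd3, a lid subunit, had a common region 386 bp before and 2 BIBR1532 regions after the start, at 170 bp in the first exon (score 1.50) and at 566 bp in intron 1 (1.86). Psmd12, also of the lid, had a common region 56 bp before the start, a vehicle region 399 bp after it in intron 1 (score 5.19) and a BIBR1532 region at the far end of the gene (6.34). Psmd13, a lid subunit too, had a common region over its start (0.481), classed by the divergent Sirt3 transcript, and abutting common and BIBR1532 regions in intron 9 of 12.

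Condition-specific promoter regions without a common one marked Psmd2 and Psmd10. Psmd2, the partner scaffold of Psmd1, had a BIBR1532 region 23 bp before its start (chr16:20651535-20651724, score 5.80). Psmd10 (gankyrin, an assembly chaperone of the cap) had a vehicle region 89 bp after its start (score 2.40), while a common region of its promoter class was assigned to Atg4a next to it. The regions assigned to Psmd7, a lid subunit, were all intergenic and more than 100 kb away (1 BIBR1532, 4 vehicle), and the common region named for Psmd14, the deubiquitinase of the lid, lay 55.3 kb before its start.

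Among activators and assembly factors, Psme1 and Psme2, which encode the partner subunits of the interferon-induced activator, had wide common regions over their starts. They spanned chr14:55577962-55578687 (726 bp, score 0.0415) and chr14:55590786-55591728 (943 bp, score 0.337), the second being the widest common region of the whole group. Neither gene had a condition-specific region. Psmg4, an assembly chaperone of the core, had common regions on both sides of its start, with scores of 0.706 and 0.630. Of the common regions of the group, only one at Usp5 had a higher score.

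The E2 genes with a common promoter region covered several branches of the pathway. Ube2c and Ube2s, the E2 pair of the anaphase-promoting complex, had common regions centred 384 and 348 bp before the start (scores 0.0842 and 0.153), and Ube2s had a BIBR1532 region further out, at -976 bp (5.60). Ube2n and its partner Ube2v1, which build chains with roles in signalling, had common regions at -223 and -190 bp (scores 0.211 and 0.212), Ube2n with a further one at -521 bp (0.0275). Ube2m, the E2 enzyme of the ubiquitin-like protein Nedd8, had a common region over the start (score 0.0883). Ube2d3, a broadly acting E2, had a 662 bp common region at -139 bp, and a BIBR1532 region overlapped its end with a score of 1.39. The common region of Ube2j2, an E2 of the endoplasmic reticulum, lay at -280 bp (0.0154).

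BIBR1532 promoter regions named 3 of 37 E2 genes (8.11%, 1.70 to 21.9) and vehicle ones 1 of 37 (2.70%, 0.0684 to 14.2). The 6.89% and 7.37% of all genes lay inside these intervals. Those without a common promoter region were at Ube2b and Ube2e2. Ube2b, an E2 in DNA damage tolerance, had a BIBR1532 region over its start (chr11:52000454-52000945, score 2.80), and Ube2e2 a vehicle region 204 bp before it (1.48). Ube2k, studied in neurodegeneration, had a BIBR1532 region 1516 bp before its start (3.64) and a vehicle region in intron 3 of 5 (5.19). Away from promoters, Ube2u had 4 BIBR1532 and 3 vehicle regions and no common one, and its 2415 bp region in intron 6 of 9 (chr4:100514179-100516593) had the highest score of any region in the group, 13.8. The annotation places that region on a simple repeat, where read mapping is less certain. Ube2e3 had 4 BIBR1532 regions, all intergenic and 34.1 to 261.2 kb from its start.

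Among the ligases of the HECT and U-box types, Ube3a had a common region 276 bp before its start (chr7:59228375-59228574, score 0.0300) and a vehicle region in intron 3 of 12 (score 5.19). Ube3a encodes the ligase whose maternal loss causes Angelman syndrome and is imprinted in neurons; the pooled lists do not separate the alleles. Ube3c, a ligase that works on the proteasome, had a common region over its start (0.186) and a BIBR1532 region centred at -638 bp (chr5:29568484-29568725, score 6.60), the highest BIBR1532 promoter score among genes with a common region. Ube4b, which extends ubiquitin chains, had common regions at -250 bp and 188 bp after the start, and a BIBR1532 region 21.5 kb into the gene in intron 1.

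Common regions of any class named 6 of the 8 cullins, against 23.9% of all protein-coding genes. Cul2 (at -116 bp, score 0.0663), Cul3 (at -265 bp, score 0.278) and Cul7 (31 bp after the start, score 0.00968, the lowest of the group) had common promoter regions. Cul5 had a common region in the first exon, 291 bp after its start (0.114), Cul9 one 522 bp after it (0.0235) and Cul4b one in intron 3 of 22 (0.202). The single condition-specific region of a cullin was a vehicle region 382 bp after the Cul7 start, classed by the end of a neighbouring transcript, with a score of 1.16. Cul1, the scaffold for F-box ligases, and Cul4a had no region under their own names. A common region of 568 bp at chr8:13104960-13105527 was nevertheless classed by a Cul4a transcript and assigned to Pcid2, whose start is nearer.

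Common promoter regions named 15 of 78 F-box genes (19.2%, 11.2 to 29.7), against 14.2% of all protein-coding genes, a share inside the interval. Among them were Fbxo5, an inhibitor of the anaphase-promoting complex (at -362 bp, score 0.178), Fbxl20, which acts on a presynaptic protein (-498 bp, 0.0464), and Fbxo41, a neuronal F-box protein (97 bp after the start, 0.0144). The remaining ones were Fbxl6, Fbxl13, Fbxl14, Fbxl15, Fbxo8, Fbxo11, Fbxo31, Fbxo33, Fbxo44, Fbxo46, Fbxo47 and Fbxw17. Of their common regions, those of Fbxl6, Fbxl13 and Fbxo8 were classed by the transcript of a neighbouring gene.

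The highest condition-specific promoter scores of the whole group belonged to F-box genes. Fbxo22, which targets histone demethylases, had 2 BIBR1532 promoter regions, and the larger (chr9:55208665-55209351, 687 bp) crossed its start with a score of 8.90. Fbxo42, known for binding p53, had the highest vehicle promoter score, 8.57, at -485 bp (chr4:141147265-141147609), and 2 vehicle regions in introns. The vehicle region at the Fbxo27 start had a score of 6.84. Neither Fbxo22, Fbxo42 nor Fbxo27 had a common region at its promoter, so each had promoter regions in 1 list only. Fbxo31, an F-box protein of the DNA damage response, had a common region on its start, a BIBR1532 region 515 bp after it (score 12.2) and a vehicle region 1504 bp before it (7.85).

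Fbxw7, a tumour suppressor that marks cyclin E, Myc and Notch for degradation, had the most condition-specific regions, 6 BIBR1532 and 5 vehicle, and no common one. The vehicle list held 2 regions at its alternative starts, at -688 bp (score 1.31) and -55 bp (5.19), and the BIBR1532 list a region in exon 1 of 11 of another transcript, 320 bp after its start (1.86). Of its 11 regions 9 carried the tied score of their list. Fbxo7, mutated in a juvenile parkinsonism, had a single vehicle region in intron 1, 1063 bp after the start.

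Among Usp genes, the largest family with 56 genes (Usp6nl counted), 18 had a common promoter region (32.1%, 20.3 to 46.0). Over all protein-coding genes the share was 14.2%. Usp9x, a deubiquitinase needed for neuronal development, had only a common region, 328 bp before its start (score 0.0207). Usp22, of the SAGA histone complex, had a common region at -262 bp and an abutting vehicle region after the start (score 1.72). Usp5, which recycles free chains, had an 897 bp common region over its start and a second one in intron 1 with a score of 0.751, the highest common score of the group. A vehicle region (score 1.50) overlapped both. Usp28, Usp36 and Usp53 also had more than one common region near the start.

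At 4 genes a condition-specific promoter region began at the base next to the common region of the same gene, and that of Fbxl13 abutted one assigned to another gene. Usp1, which acts on DNA repair substrates, and Usp38 had a BIBR1532 region on the side of the start (scores 2.03 and 1.89). Usp42 had a vehicle region on the outer side (2.83), and the Psmb1 case is given above. Usp15, Usp46 and Fbxo46 carried all 3 lists within 1 kb of the start. At Usp46, which regulates glutamate receptors, the order along the gene was vehicle at -649 bp (5.82), common at -283 bp (0.0555) and BIBR1532 406 bp after the start (5.17). At Usp15 it was vehicle at -609 bp (1.50), common at -278 bp (0.396) and BIBR1532 at 131 bp after the start (4.56).

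Usp7, the deubiquitinase of Mdm2 and p53, had only BIBR1532 regions, both upstream, at -584 bp (score 6.39) and -875 bp (5.17). BIBR1532 promoter regions without a common one also named Usp18 (4.71), which removes the interferon-induced modifier ISG15, Usp33 (4.66), Usp39 (6.34), a splicing factor, and Usp47 (7.58), a DNA repair deubiquitinase. Vehicle promoter regions without a common one under the same name were found at Usp2 (5.19), Usp37 (3.09) and Usp40 (7.49). A common region classed by a Usp37 transcript was assigned to its neighbour Cnot9. Usp14, the deubiquitinase bound to the proteasome cap, had no promoter region, with 2 BIBR1532 and 3 vehicle regions farther away. The highest vehicle score of the group, 11.8, was that of Usp54 in the 5′ UTR, exon 2 of 21, 10.5 kb after the nearest start (chr14:20607576-20608071).

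Condition-specific regions at the group were similar in number in both lists. The BIBR1532 list held 146 of 287 (50.9%, 44.9 to 56.8), against 46.5% of the 34715 condition-specific regions of all genes. At promoters it held 23 of 45 (51.1%, 35.8 to 66.3), against 48.5%. Both values for all regions lay inside the interval of the group. Without the tied scores the BIBR1532 share was 57.2% (87 of 152, 49.0 to 65.2), against 48.2% of all regions, which was then just below the interval. Per gene, 59 had more BIBR1532 regions, 54 more vehicle regions and 21 equal numbers; of the unequal ones 52.2% (42.6 to 61.7) had more BIBR1532 regions, against 44.9% over all genes.

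**Figure D2:**
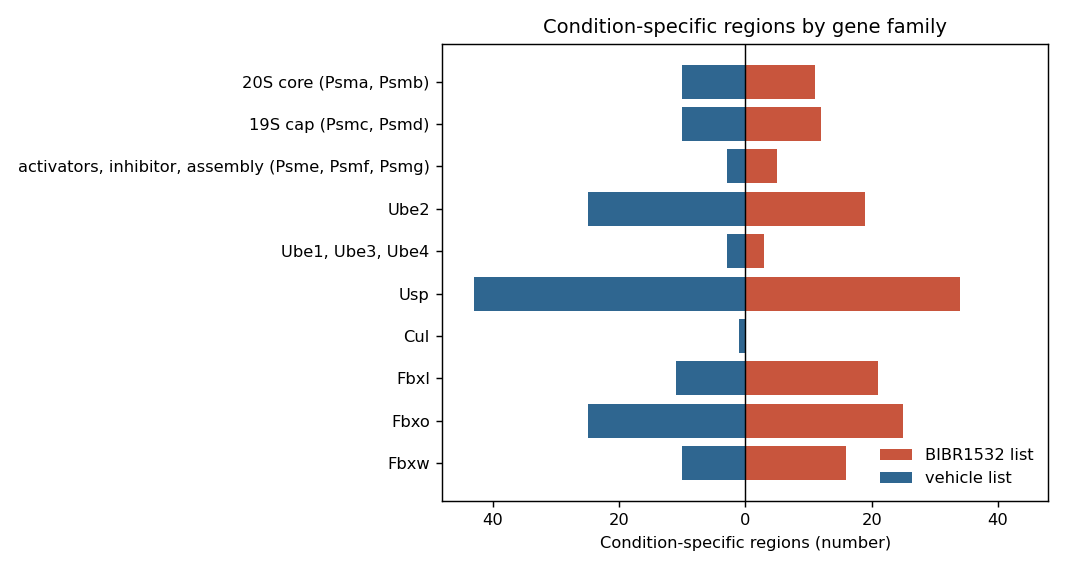
Number of condition-specific regions per gene family, vehicle to the left (blue) and BIBR1532 to the right (red), over all annotation classes. Usp genes, with Usp6nl counted, had 43 vehicle and 34 BIBR1532 regions, and Fbxl genes 11 and 21.

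In every family but Fbxl, the 46.5% of all regions lay inside the interval of the family's BIBR1532 share. Fbxl genes had 21 BIBR1532 and 11 vehicle regions (65.6% BIBR1532, 46.8 to 81.4), an interval that began just above the 46.5% of all regions. The 4 BIBR1532 regions of Fbxl4 and the 4 of Fbxl22 made up 8 of those 21. Usp genes had 34 and 43 (44.2%, 32.8 to 55.9), Ube2 genes 19 and 25 (43.2%, 28.3 to 59.0), the 20S core 11 and 10, and the 19S cap 12 and 10. In exons there were 11 BIBR1532 and 2 vehicle regions (84.6% BIBR1532, 54.6 to 98.1, against 45.7% over all genes), a class singled out after its values were seen. The BIBR1532 exon regions lay at Fbxl17, Fbxo5, Fbxo21, Fbxw7, Psmb7 (2 regions), Ube2t, Usp4 (2 regions), Usp10 and Usp15, and 4 of the 11 were in a first exon.

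Most condition-specific regions at the group lay far from start sites, but a smaller share was intergenic than over all genes. Of the 287, 169 lay more than 10 kb and 27 more than 100 kb from the start of the gene they were assigned to. Those distances were not counted over all genes. Introns held 126 (43.9%, against 43.9% over all genes). Intergenic stretches held 83 (28.9%, 23.7 to 34.5, against 38.6%). Regions centred within 1 kb of a start were 23.7% (18.9 to 29.0), against 16.7%. Repeats held 31 of the 146 BIBR1532 regions (21.2%) and 36 of the 141 vehicle regions (25.5%), against 25.2% and 25.5% over the lists. The 17 genes with at least 4 such regions had a median length of 55.9 kb, and the 234 protein-coding genes 25.7 kb. Across genes, the rank correlation of length with the number of regions was 0.311 over the 234 and 0.430 over all 21883, given as a description across genes, which are not replicates. The average per gene was 1.22 for the group and 1.30 over all genes. Besides Fbxw7, Psmb7 and Ube2u, the genes with most regions were Usp6nl (2 BIBR1532, 5 vehicle), Fbxo33 (1 and 5) and Ube2e3 (4 and 2).

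Common regions at the group were centred close to start sites, more of them upstream than downstream. Promoters were 66 of the 103 common regions (64.1%, 54.0 to 73.3), against 51.9% of all common regions. Of 88 common regions centred within 1 kb of a start, 51 lay upstream (58.0%, 47.0 to 68.4), against 47.7% of 4950 over all genes, a value inside that interval. Median positions were -109 bp for the group and 20 bp over all genes. Several common regions lay within 1 kb at 8 of 80 genes (10.0%; 10.6% over all genes). In the condition-specific lists, promoters were 45 of 287 regions (15.7%, 11.7 to 20.4), against 10.2% over all genes.

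Condition-specific promoter regions often stood next to a common region. Of the 45, 22 lay within 1 kb of one (48.9%, 33.7 to 64.2), against 38.3% of 3525 over all genes, and 5 began or ended at the base beside it. Their scores were lower than those of promoter regions farther away, with medians of 3.47 (n = 9) and 6.34 (n = 14) in the BIBR1532 list and 2.40 (n = 13) and 5.19 (n = 9) in the vehicle list. Over all genes the medians were 2.19 and 5.17, and 2.17 and 5.19. The group followed the pattern of all genes here.

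**Figure D3:**
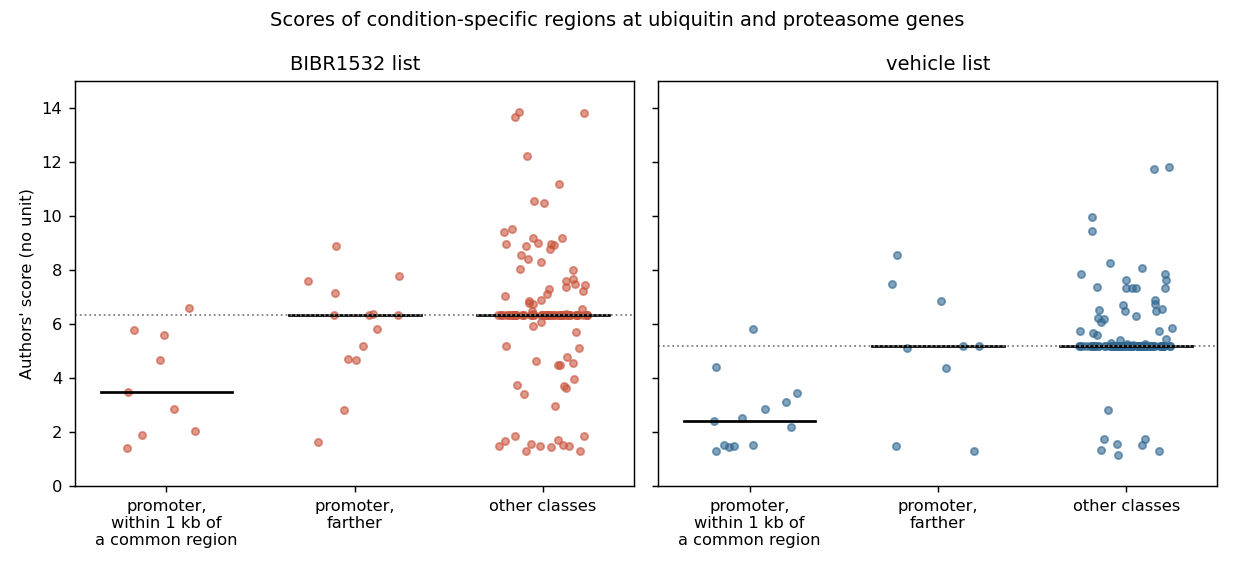
Authors' score (no unit) of each condition-specific region at the ubiquitin and proteasome genes, by list and place: promoter regions within 1 kb of a common region, promoter regions farther away, and all other classes. Black bars are medians and the dotted line is the tied score of the list, 6.34 for BIBR1532 and 5.19 for vehicle; sideways spread of the points carries no value. Promoter regions beside a common region have medians of 3.47 and 2.40, below the dotted lines.

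The promoters with a common region were rich in CpG. At least 1 RefSeq promoter window (250 bp before to 50 bp after a start) was matched for 186 of the 234 genes and 17491 genes in all. Genes with several start sites can have several windows. Each gene was counted once, and held a feature if any of its windows did, so genes with more windows had more chances. A window with a CpG ratio above 0.6 and a GC content above 50% is called CpG-rich here. Of the matched genes with a common promoter region, 41 of 50 had one (82.0%, 68.6 to 91.4), and of those without, 88 of 136 (64.7%). Over all genes the shares were 86.7% and 41.4%. Among genes with a CpG-rich window a common promoter region was found at 41 of 129 of the group (31.8%, 23.9 to 40.6). The share was 26.7% of 8410 in all, which is inside the interval. Among the genes without such a window it was found at 9 of 57 (15.8%, 7.48 to 27.9), against 3.80% of 9081, which is outside the interval. Genes with a CpG-rich window were 69.4% of the group's matched genes and 48.1% of all matched genes.

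Of 8 motifs searched on both strands, GGGCGG was the most frequent. Counted per gene as above, it stood at 43 of the 50 matched genes with a common promoter region (86.0%, 73.3 to 94.2). It also stood at 75 of the 136 without (55.1%) and at 49.2% of all matched genes. Of all genes with a common promoter region, however, 79.3% held it too. The ETS letters CCGGAAG stood at 15 of 50 (30.0%, 17.9 to 44.6), 22.8% and 12.9% of these genes, and at 21.0% of all genes with a common promoter region. Within the group they stood at 10 of 18 matched 19S cap genes, Psmc3ip being among the 10, and at 1 of 15 of the 20S core, a difference that was not tested. TGACNNNGC, within the antioxidant response element, stood at 26.0% (14.6 to 40.3), 15.4% and 14.8% of these genes. It stood at 18.9% of all genes with a common promoter region, and this share and the 14.8% lie inside the interval. TTAGGG stood at 3 of 50 (1.25 to 16.5%), 16 of 136 and 2101 of 17491 genes, a share over all matched genes that lies inside the interval of the group. CACGTG was found at 4 of the 50 genes and at 15 of the 136, and GCATGCGC (NRF1) at 2 and 8. TGACGTCA (CRE) and ACTACAATT (part of the ZNF143 site) were in no window of the 50 genes. Letters can overlap, and GGGCGG recurs within longer GC runs such as that of Psma4.

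**Figure D4:**
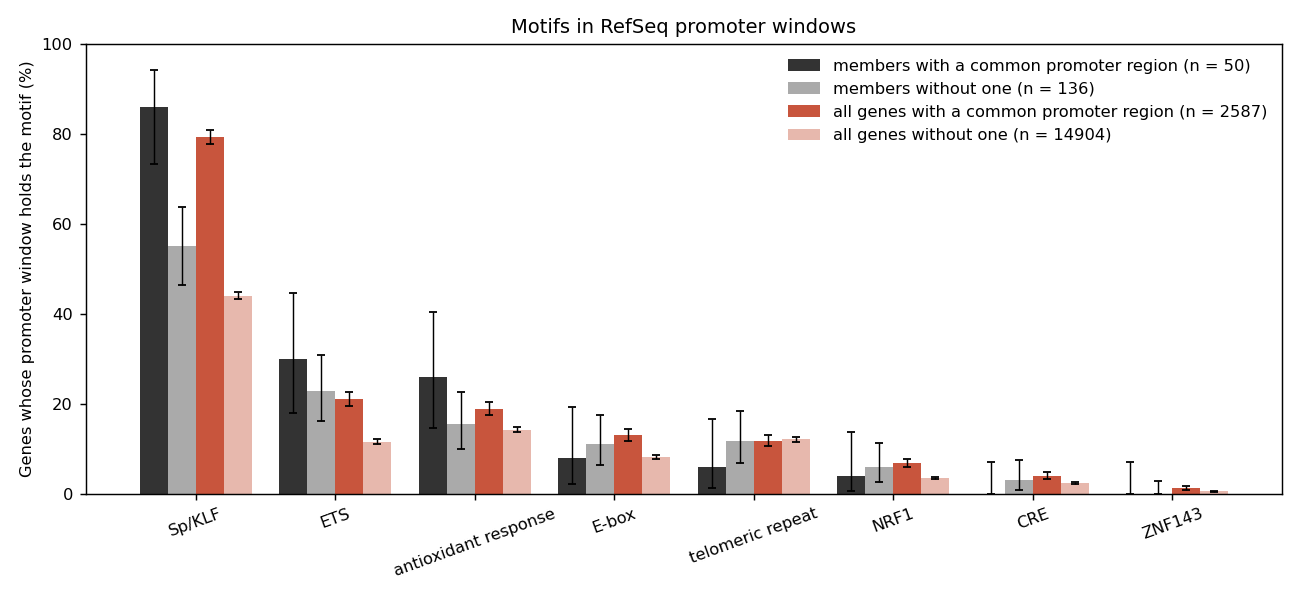
Percent of RefSeq promoter windows that hold each motif, for ubiquitin and proteasome genes with (dark, n = 50) and without (light grey, n = 136) a common promoter region, and for all genes with (red, n = 2587) and without one (pink, n = 14904); bars show exact 95% intervals. Sp/KLF letters reach 86.0% and 79.3% in the sets with a common region.

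Other genes of the pathway, from lists drawn up for comparison, had common promoter regions at 52 of 150 matched genes (34.7%, 27.1 to 42.9), against 14.2% of all genes. Promoter regions of the BIBR1532 list named 20 of the 150 and those of the vehicle list 16 of the 150, against 6.89% and 7.37% of all genes. No intervals were computed for these counts. The lists below hold few genes each, and their counts are to be read against the same 14.2%. Activating enzymes had 3 of 8, namely Uba1 and Uba6, which activate ubiquitin, and Nae1 of the Nedd8 pathway. Other deubiquitinases had 11 of 24, among them Uchl1, abundant in neurons, Otub1 and Cyld. RING ligases had 10 of 24, cullin partners and the COP9 signalosome 10 of 29, the anaphase-promoting complex 6 of 16 and HECT and RBR ligases 6 of 20, among them Nedd4 and Herc2. Ubiquitin and ubiquitin-like proteins had 2 of 10 (Nedd8 and Sumo3), and regulators and shuttles 4 of 19, among them Nfe2l1, the factor that induces proteasome genes, and Rad23b. The interval of these genes together overlapped that of the ubiquitin and proteasome families.

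Common promoter regions do not measure expression, and the marker lists of cell types were too short to be told from the 14.2% of all genes. Neuronal markers had 2 of 18 (Snap25 and Syt1; 1.38 to 34.7%) and neural progenitor markers 2 of 8 (3.19 to 65.1%). Markers of astrocytes, oligodendrocytes, microglia and vessel cells had none of 8 each, which allows a share of up to 36.9%. The cell make-up of the cultures was not tested by these lists.

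Assignment to the nearest start affects some of the values above. The class was set by a transcript of another gene for 5 of the 66 common, 3 of the 23 BIBR1532 and 4 of the 22 vehicle promoter regions. In return, 13 common and 4 vehicle promoter regions classed by a transcript of the group were assigned to a neighbour, among them those at Cul4a, Psmd10, Psma7, Usp35 and Usp37. With the gene of the class transcript in place of the nearest one, 68 of the 234 genes (29.1%) had a common promoter region, against 14.1% of all genes. A protein-coding gene read in the opposite direction started within 1 kb for 7 of the 50 genes with a common promoter region and 14 of the 136 without.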

How the data were processed

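The 3 lists hold regions from 6 TERT CUT&Tag samples, combined by condition by the authors. Tools in the submitters' processing notes are Bowtie2, Picard, CASAVA 1.8 and MACS2 2.1.2, with mm10 as build; their roles are not given in the sources used here. The annotation came from annotatePeaks.pl run on mm10, per the file headers, and assigns every region a class and the closest start site's gene. Scores are as deposited by the authors; that they are likelihood ratios of the pools is known from MACS2 and not stated with the data.

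Counts cover chromosomes 1 to 19, X and Y, and were made per gene, class and list after decoding the condition-specific lists. Denominators are protein-coding genes of RefSeq (GRCm38.p6), whose promoter windows gave the sequences. Gaps between regions count bases between their ends. The depth of each sample is unknown. There were no sample values, so no test was run. Counting functions were tested on simulated data.

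The genes described in detail were drawn from those with a common promoter region, not all of which are named. They were also drawn from up to 3 promoter regions of highest score per family and condition-specific list. Up to 3 genes per family with the most condition-specific regions, if at least 4, were a further source. So were the highest score of each list and 14 genes known in neurons or central to the pathway. Others were named in lists only, and a few genes under the rule are not reported here. The members and lists were chosen with earlier results of these data known. Alternatives were promoter distance, width, score, ties, contigs, merging, gene universe and transcript assignment. The software was Python 3.11.15 with scipy 1.17.1, numpy 2.4.6, matplotlib 3.10.9 and pandas 2.3.3.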

Additional observations from a re-analysis of the deposited data

How the results depend on the processing

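Of 27 alternatives, 17 gave a value inside the interval of the value reported and 10 outside it. The share of genes with a common promoter region was 33.8% (all genes 19.2%) for regions centred within 1 kb of a start, 35.5% (20.2%) within 5 kb, 5.98% (3.01%) for regions of at least 500 bp and 37.1% (21.5%) over genes named by any region. The BIBR1532 share of condition-specific regions was 57.2% (49.0 to 65.2) without the tied scores, and the 48.2% of all genes then lay outside the interval, unlike with the ties. The promoter share of common regions was 87.5% (68.6%) at 500 bp or more and 85.4% (72.7%) by the 1 kb distance. The promoter share of condition-specific regions was 8.11% (3.98%) at 500 bp or more, 23.7% (16.7%) by the 1 kb distance and 26.3% (17.3%) without the tied scores. In each of these 10 the value of the group exceeded that of all genes. Setting the class by its transcript, leaving out the Fbxw cluster with the Usp17l copies, and leaving out promoter regions classed by another gene were chosen after seeing the data. No paired analysis was possible because the lists hold pooled conditions and no result comes from a test. Leaving out a replicate was likewise not run, and depth limits could not be set.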

Other observations

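At 6 genes of the group, Fbxl16, Fbxo46, Fbxw7, Usp15, Usp39 and Usp46, the BIBR1532 and vehicle lists both held a region within 1 kb of a start site, 5.36% of the 112 genes with a region of any list at that distance, against 3.71% of 7800 over all named genes. Of the 112, 54 had the common list alone (48.2%, against 35.8% of the 7800), 16 the BIBR1532 list alone (14.3%, against 19.9%) and 13 the vehicle list alone (11.6%, against 20.8%). Away from promoters, Fbxo16 had a BIBR1532 region in intron 7 of 7 with a score of 13.8, Fbxo8 an intergenic one 74.2 kb after its start with 13.7, and Fbxw24 an intergenic vehicle region with 11.7. Among genes of the group with a divergent protein-coding neighbour, 6 of 21 had a vehicle promoter region (28.6%, 11.3 to 52.2) and 2 of 21 a BIBR1532 one (9.52%, 1.17 to 30.4). Over all genes with such a neighbour the shares were 13.5% and 10.7%, each inside the interval of the group. Among the 6, Fbxo9, Psma7, Psmc5 and Usp37 had a vehicle region classed by the neighbour's transcript.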
